A study of Mus musculus with 9 samples.

Results

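Complement genes were followed across the cells of control mouse brains and of brains carrying an ependymoma. Rows were taken by gene symbol, which gave 8 genes of 32285 mouse genes listed in the libraries: the 3 chains of C1q (C1qa, C1qb and C1qc), C3, C4b, the receptors C3ar1 and C5ar1, and the inhibitor Serping1. Each symbol matched 1 row, and all 8 are accounted for in each comparison. The rule used symbols and no measured value, but the genes were chosen with earlier results of these data known.

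Complement is a cascade of proteins that tags surfaces for uptake and recruits immune cells. C1q starts the classical pathway by binding antibody or altered surfaces, C4 and C3 are then cleaved, and the small fragments of C3 and C5 act through receptors on myeloid cells. In the brain, microglia are known as the main source of C1q, astrocytes can make C4 and C3, and C1 inhibitor, the product of Serping1, blocks the proteases that ride on C1q.

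The data were single-cell RNA-seq counts of unique molecular identifiers (UMIs, 1 per captured transcript) from 9 mice aged 6 to 8 weeks. There were 4 control mice of genotype NestinCreERT2;TdT and 5 tumor mice of genotype NestinCreERT2;Fus1. Both genotypes carried NestinCreERT2, a tamoxifen-inducible Cre under Nestin control. In the tumor mice recombination in neural stem and radial glial cells switched on a ZFTA-RELA fusion, the driver of one class of supratentorial ependymoma, in a mouse that develops the tumor in its own brain. Controls were tumor-free brain, so tumor and normal tissue differ in more than the fusion. Cell suspensions were sorted before loading, and the sort can set the shares of cell types. Nothing in the labels pairs a control with a tumor mouse. Each library was treated as 1 mouse, and the p-values measure the spread between these libraries.

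After filtering, 35339 cells were kept, 19602 from controls and 15737 from tumors, with 3983 to 5927 cells per control library and 1577 to 5108 per tumor library. Deposited libraries held 101060608 to 178086164 UMIs in controls and 14967680 to 69411387 in tumors. The median kept cell had 2059 to 4193 UMIs in controls and 2068 to 6525 in tumors. Transcripts of the fusion were found in 0 of 14943 kept cells of controls 1 to 3, which allows a share of up to 0.0201% of cells with such a UMI and sets no limit on cells expressing it, and in 6, 209, 6, 607 and 280 cells of tumors 1 to 5; control 4 could not be assessed because its feature list gave other vector entries than those of the other libraries and was shorter than its matrix. Of 30571 kept barcodes in 8 libraries, 109 (0.357%) occurred in more than 1 library. Neuron-gated cells made up 15209 of the control cells and 1464 of the tumor cells. Levels over all kept cells therefore compared sets of barcodes of very different make-up. The neuron gate asked for at least 1.0% of UMIs on its marker list. In the barcodes with the fewest UMIs that list held 7567 to 8110 per 1000000 UMIs in controls and 688 to 5654 in tumors. How many neuron-gated barcodes hold mainly such RNA was not tested.

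Cells were placed in cell types by gates on fixed marker lists that held no complement gene. A cell entered the phagocyte gate on Csf1r, Ctss, Tyrobp and 9 other genes, and was called microglia-gated or macrophage-gated by whether more genes of the microglia list (Tmem119, P2ry12, Cx3cr1 and others) or of the macrophage list (Mrc1, Ms4a7, Lyz2 and others) were detected. This gave 464 control and 1589 tumor microglia-gated cells, and 13 control and 178 tumor macrophage-gated cells. All 12 microglia markers were detected in the microglia gate, where the leading genes outside the complement set included Ccl4, Ctss and Cx3cr1. Lyz2, Pf4, Mrc1 and Ms4a7 led the macrophage gate. There were 101 control and 841 tumor astrocyte-gated cells, 73 and 297 oligodendrocyte-gated cells, and 78 and 634 endothelial-gated cells. Each had markers of its own list among its leading genes, such as Gja1, Cldn11 and Cldn5. The gates select on the marker lists, so finding list genes in a gate is a description and no independent check of identity.

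The 3 C1q genes lie side by side on the minus strand of mouse chromosome 4 (GRCm38), within 18675 bases: C1qb at chr4:136880129-136886187, C1qc at chr4:136889804-136893065 and C1qa at chr4:136895917-136898803. C3 (chr17:57203970-57228136) and C4b (chr17:34728380-34743882) are on chromosome 17, C3ar1 is at chr6:122847138-122856161, C5ar1 at chr7:16246743-16259540 and Serping1 at chr2:84765387-84775444, each on the minus strand. C3 holds the small RNA gene Mir6978 within its span, on the same strand. C4b has a near-identical copy, C4a, at chr17:34809092-34823464, and reads could be split between them.

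Promoters of 5 of the 8 genes were matched in the RefSeq table (GRCm38.p6, from 250 bases before to 50 bases after the gene start, shown 5′ to 3′ on the gene's strand). Those of C1qb (chr4:136886151-136886450), C1qc (chr4:136892865-136893164) and C5ar1 (chr7:16259289-16259588) are shown because the 3 genes were higher in tumor microglia-gated cells by the largest amounts among the matched genes that passed the filter on low counts there. Capitals mark the letters GAGGAA, the core bound by the myeloid factor PU.1, and ACTTCC, a core of the wider ETS family to which PU.1 belongs, each searched on both strands, where they read TTCCTC and GGAAGT. The 2 searches can overlap, as they do in C1qc.
C1qb: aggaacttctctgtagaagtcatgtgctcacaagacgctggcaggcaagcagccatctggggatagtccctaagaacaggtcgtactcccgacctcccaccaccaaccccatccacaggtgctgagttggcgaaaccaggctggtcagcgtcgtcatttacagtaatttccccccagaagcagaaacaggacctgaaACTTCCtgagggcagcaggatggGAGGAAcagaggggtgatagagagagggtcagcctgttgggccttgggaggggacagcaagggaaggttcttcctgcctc
C1qc: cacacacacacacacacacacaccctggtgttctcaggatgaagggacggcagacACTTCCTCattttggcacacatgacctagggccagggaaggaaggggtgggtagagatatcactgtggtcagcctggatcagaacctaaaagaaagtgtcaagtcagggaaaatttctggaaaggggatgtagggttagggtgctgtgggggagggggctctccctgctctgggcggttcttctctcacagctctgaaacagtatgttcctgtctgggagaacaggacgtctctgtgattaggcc
C5ar1: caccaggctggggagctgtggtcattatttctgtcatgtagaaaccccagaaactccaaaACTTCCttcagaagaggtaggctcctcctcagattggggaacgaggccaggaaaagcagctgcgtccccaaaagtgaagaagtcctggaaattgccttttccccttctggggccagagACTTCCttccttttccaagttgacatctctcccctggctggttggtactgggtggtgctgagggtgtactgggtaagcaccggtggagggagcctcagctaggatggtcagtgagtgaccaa
C1qb and C1qc each held 1 match to either core and C5ar1 held 2 matches to ACTTCC. The promoters of C3 and C3ar1 held none. Of 32851 promoters of this length, 28.28% held GAGGAA and 23.77% held ACTTCC on either strand, so these letters are common and the matches are a description only.

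Over all kept cells, 7 of the 8 genes were higher in tumors than in controls by edgeR's quasi-likelihood test with Benjamini-Hochberg adjustment over all genes at 0.05, against a background of 32.3% of 17599 tested genes called higher and 29.5% called lower. C3 and C5ar1, with 42 and 41 control UMIs, passed the filter on low counts through the tumors, where they were high. The number of called genes is therefore a description. Values are counts per 1000000 UMIs (CPM) of the cells summed for each mouse. Fewer cells of a type and less RNA per cell cannot be told apart in these sums.

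C1qa, which encodes the A chain of C1q, stood at 92.2, 124.2, 108.6 and 119.0 CPM in controls 1 to 4 and at 1288, 1816, 2778, 774 and 818 in tumors 1 to 5. C1qb ran from 84.9 to 107.1 in controls and from 665 to 2728 in tumors, and C1qc from 64.2 to 79.0 and from 452 to 1890. No tumor overlapped a control for any chain, and tumor 3 was the highest for each. The log2 differences were 3.97 ± 0.41 (SE; edgeR adjusted p = 0.00016204) for C1qa, 4.04 ± 0.42 for C1qb and 3.88 ± 0.43 for C1qc.

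C3, the central component of the cascade, was rare, with 42 UMIs in all control cells and 1084 in all tumor cells. It stood at 0.7, 0.5, 1.0 and 0.3 CPM in controls and at 3.7, 5.6, 8.7, 23.0 and 2.7 in tumors. The groups did not overlap, and tumor 4 held 864 of the 1084 UMIs. The log2 difference was 4.16 ± 0.78 (edgeR adjusted p = 0.0016595), and 3.26 without tumor 4.

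C4b, which encodes the C4 protein of the classical pathway, was at 5.9, 8.1, 6.4 and 3.0 CPM in controls and at 116.3, 40.1, 42.1, 38.1 and 33.4 in tumors. Every tumor was above every control, and tumor 1 stood apart at the top. On the log2 scale C4b was higher by 3.39 ± 0.42 (edgeR adjusted p = 0.0002703).

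C3ar1, the receptor for the small C3 fragment, was at 4.5, 3.4, 3.3 and 4.2 CPM in controls and at 20.5, 23.5, 77.7, 12.4 and 13.5 in tumors. C5ar1, the receptor for the small C5 fragment that draws in myeloid cells, was at 0.5, 0.9, 0.5 and 0.3 in controls, on 41 UMIs, and at 13.04, 24.2, 54.2, 2.7 and 6.0 in tumors. Neither gene overlapped between the groups, and tumor 3 was the highest for both. The log2 differences were 3.10 ± 0.51 for C3ar1, which was 2.53 without tumor 3, and 5.27 ± 0.88 for C5ar1, which was 4.67 without tumor 3 (edgeR adjusted p = 0.00093196 and 0.00094087).

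Serping1 was the one gene of the 8 that did not pass. It was at 5.2, 5.2, 4.2 and 4.4 CPM in controls and at 13.9, 4.4, 10.1, 2.1 and 2.6 in tumors. The groups overlapped, with 2 tumors above all controls and 2 below. The log2 difference was 0.58 ± 0.47 (edgeR adjusted p = 0.29905), and −0.41 when all deposited barcodes were summed.

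Phagocyte-gated cells were 2.35%, 2.56%, 2.46% and 2.49% of the kept cells in controls 1 to 4 and 10.8%, 20.1%, 22.3%, 7.69% and 8.00% in tumors 1 to 5. Every tumor was above every control, by 11.3 percentage points on average (exact permutation p = 0.01587 on both sides, as low as 5 against 4 mice can go). Without the neuron-gated cells the difference was 4.88 points (exact permutation p = 0.3016), and tumors 4 and 5 lay below all 4 controls. The smallest barcode considered had 1473 to 2695 UMIs in controls and 500 to 2113 in tumors, so small cells could be left out more often in controls. The part of this unequal floor in the share was not tested. Nor was that of neuron-gated barcodes that may hold mainly the RNA seen in the barcodes with the fewest UMIs.

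Of all C1q UMIs, phagocyte-gated cells held 53.9%, 57.0%, 61.5% and 62.0% in controls and 93.4%, 95.3%, 96.4%, 86.3% and 93.4% in tumors. The means were 58.6% ± 3.86 (SD, n = 4) and 93.0% ± 3.96 (SD, n = 5; exact permutation p = 0.01587). In controls, 27.4% of the C1q UMIs lay in neuron-gated cells, at 33.4 to 44.1 CPM of C1qa, below the 70.3 to 82.0 CPM in the 3000 barcodes with the fewest UMIs of the same libraries. C3ar1 UMIs lay in phagocyte-gated cells to 54.1% in controls and 93.2% in tumors, and those of C5ar1 to 26.8% and 92.8%.

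Within microglia-gated cells, the resident phagocytes of the brain, C1qa, C1qb, C1qc and C3ar1 were called higher in tumors, where 18.7% of 8206 tested genes were called higher. C5ar1 and C4b were called too, but with 11 and 12 control UMIs they passed the filter on low counts through the tumors, where they were high, so the number of called genes is a description. C3 and Serping1 did not pass the filter.

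C1qa was at 2423, 3047, 3159 and 3275 CPM in microglia-gated cells of controls 1 to 4 and at 10521, 9887, 9715, 11402 and 9563 in those of tumors 1 to 5. C1qb was at 2041, 2471, 2926 and 2384 in controls and at 8931, 8243, 9553, 9308 and 10028 in tumors. C1qc was at 1795, 2023, 2328 and 1821 in controls and at 5201, 5467, 6646, 6602 and 6702 in tumors. For all 3 chains the groups were far apart, the lowest tumor lying above the highest control, and the 5 tumors were close to one another although their levels over all kept cells were spread widely. The log2 differences were 2.20 ± 0.21 for C1qa (edgeR adjusted p = 3.4333e-05), 2.32 ± 0.21 for C1qb and 2.04 ± 0.21 for C1qc. The 3 chains were 3.43, 3.75 and 3.08 times higher in the tumors by the means of their CPM. The scaling by trimmed means of M-values (TMM) adds to these differences: with library totals only, the median gene differed by −0.44 in place of −0.01, and C1qa, C1qb and C1qc by 1.76, 1.89 and 1.60, each still called.

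**Figure D1:**
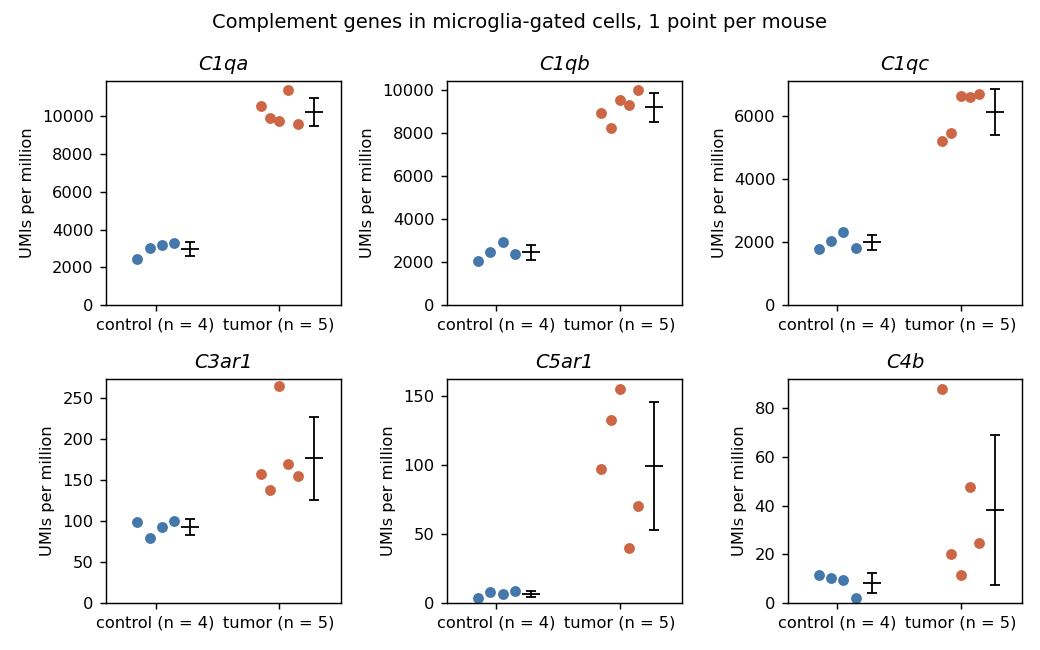
Complement genes in microglia-gated cells, in CPM, for 6 genes in separate panels. Each point is 1 mouse (4 control, 5 tumor), and the bar beside the points is the mean with its SD; C1qa, C1qb and C1qc of all 5 tumors lie above all 4 controls, C3ar1 of tumor 3 stands above the other tumors at 263.7, and C4b in controls and tumors comes closest to overlapping.

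Single cells showed the same separation. The median microglia-gated cell carried 5865, 7197, 7969 and 7359 CPM of C1q in controls and 23699, 22262, 23466, 27838 and 24953 in tumors. The 90th percentile of control cells was at 9262 to 12589 and the 10th percentile of tumor cells at 11383 to 16414, so that the bulk of the cells of the 2 groups lay apart. No microglia-gated cell of either group lacked a C1q UMI. When each cell was thinned to 1000 UMIs, which left out no cell, C1qa was seen in 91.1% to 98.3% of control and 98.3% to 100% of tumor microglia-gated cells. In neuron-gated cells the shares were 3.24% to 4.59% in controls and 4.58% to 16.9% in the 4 tumors with at least 10 such cells.

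**Figure D2:**
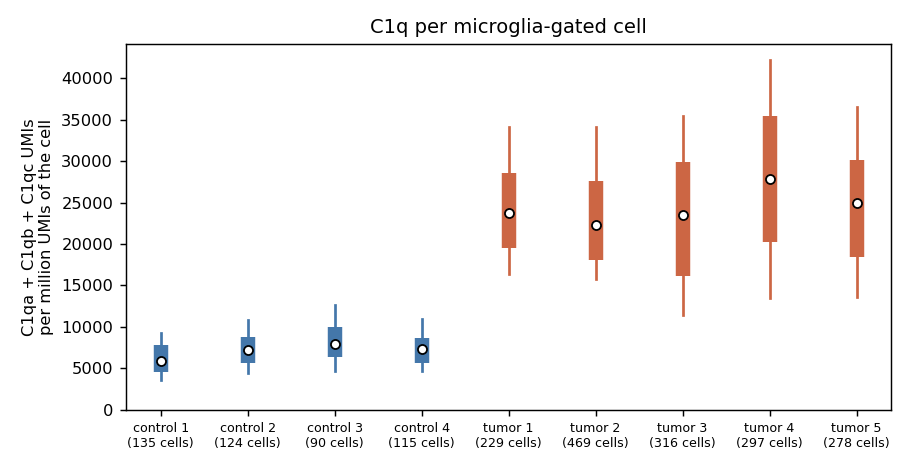
C1q (C1qa, C1qb and C1qc together) as CPM of each cell in microglia-gated cells of each mouse, with the number of cells under each name. The open circle is the median, the thick bar the middle 50% of cells and the thin line the 10th to 90th percentile; control medians are 5865 to 7969 and tumor medians 22262 to 27838.

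The 3 chains make up 1 protein in equal parts, and their proportions moved little. C1qa made up 40.1% ± 2.71 of the C1q UMIs of microglia-gated cells in controls (SD, n = 4) and 40.0% ± 2.89 in tumors (n = 5; exact permutation p = 0.9683). C1qb made up 33.0% ± 1.25 and 36.0% ± 1.60, a difference of 3.04 points, and C1qc 26.9% ± 1.85 and 23.9% ± 1.87, a difference of −2.96 points. The exact permutation p-values were 0.03175 and 0.04762, and 0.07143 for both when adjusted over the 3 chains, so neither passed.

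C3ar1 was at 98.4, 79.4, 92.3 and 100.0 CPM in microglia-gated cells of controls and at 156.7, 137.3, 263.7, 168.8 and 154.1 in tumors. The groups did not overlap, and tumor 3 stood apart. C3ar1 was higher by 1.34 ± 0.22 on the log2 scale (edgeR adjusted p = 0.00052365), and by 0.59 (adjusted p = 0.06207), no longer called, after subtraction of the profile of the 3000 barcodes with the fewest UMIs. With thinned cells, C3ar1 was seen in 6.67% to 14.8% of control and 14.0% to 18.9% of tumor microglia-gated cells, which overlapped (17.0% to 33.0% and 31.9% to 59.6% without thinning).

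C5ar1 in the microglia gate was at 3.8, 8.1, 6.4 and 8.7 CPM in controls, on 11 UMIs in all, and at 97.5, 133.1, 155.2, 40.1 and 70.3 in tumors, on 820 UMIs. All tumors were above all controls, tumor 4 being the lowest of them. C5ar1 was higher by 4.17 ± 0.48 on the log2 scale (edgeR adjusted p = 7.4518e-05), and by 4.36 with no filter on low counts. With thinned cells it was seen in 0% to 0.806% of control and 5.05% to 11.7% of tumor microglia-gated cells, and in at most 0.0332% and 0.395% of neuron-gated cells.

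C4b was at 11.4, 10.2, 9.6 and 2.2 CPM in microglia-gated cells of controls, on 12 UMIs, and at 87.9, 20.0, 11.6, 47.5 and 24.5 in tumors. The groups did not overlap, though tumor 3 at 11.6 was next to control 1 at 11.4. The log2 difference was 2.57 ± 0.70 (edgeR adjusted p = 0.010487), and the call was lost with limma voom (2.18, adjusted p = 0.2676). C4b did not pass the filter on low counts without tumor 2, tumor 4 or tumor 5, and was called when no filter was used (2.74, edgeR adjusted p = 0.00058858). In each tumor this level was below that of C4b in the barcodes with the fewest UMIs, which was 104.9, 37.4, 60.6, 94.8 and 54.8 CPM. The neuron list in the microglia-gated cells of tumors stood at 7.96% to 26.5% of its level in those barcodes. After subtraction of their profile C4b no longer passed the filter on low counts and was not tested.

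C3 in the microglia gate was at 0, 8.1, 0 and 0 CPM in controls and at 1.6, 11.9, 4.4, 59.8 and 8.7 in tumors. Only tumor 4 was well above the rest, and its barcodes with the fewest UMIs held 40.1 CPM of C3, against 0.32 to 2.21 in the other 8 libraries. Serping1 had 3 UMIs in control and 8 in tumor microglia-gated cells, and no difference was detectable at this depth.

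Other RNA moved with these results. Neuron-list genes stood at 4136 to 5475 CPM in the microglia-gated cells of controls, which was 53.8% to 67.5% of their level in the barcodes with the fewest UMIs, and at 117 to 1391 in tumors, or 7.96% to 26.5%. The microglia list itself was at 9913 to 12956 CPM in controls and 6671 to 16959 in tumors, while the phagocyte list was at 9546 to 11651 and 19933 to 24816. When the profile of the barcodes with the fewest UMIs was subtracted, in an amount set by the neuron list, the log2 differences were 1.48 for C1qa, 1.61 for C1qb, 1.32 for C1qc and 3.40 for C5ar1, each still called. The call of C5ar1, on 11 control UMIs, remains a description. The filters kept 70.9% to 82.1% of the control and 24.9% to 57.5% of the tumor barcodes that met the microglia gate. Without the mitochondrial and doublet filters the same 6 genes were tested and called. The part of neuronal RNA and of the filters in the differences was not tested beyond these values.

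Set against the microglia list instead of all UMIs, a ratio added after the data were seen, C1qa stood at 24.45, 26.68, 24.38 and 29.11 UMIs per 100 microglia-list UMIs in controls and at 93.63, 124.8, 57.29, 170.9 and 101.2 in tumors. The groups did not overlap, with tumor 3 the lowest and tumor 4 the highest of the tumors. The ratios of C1qb, C1qc, C3ar1 and C5ar1 did not overlap either (exact permutation p = 0.01587 and 0.01904 adjusted over 6 genes, for each), while that of C4b did (p = 0.06349 by the exact permutation test). The p of 0.01587 is the lowest that the exact permutation test can give with these mice. How many of all genes separate in the same way as ratios to the microglia list was not tested. That list was at 9913 to 12956 CPM in microglia-gated cells of controls and 6671 to 16959 in those of tumors. These ratios hold for the microglia list only. The phagocyte list of the same cells was at 9546 to 11651 CPM in controls and 19933 to 24816 in tumors, and C3ar1 was 1.90 times higher in tumors by the means of its CPM. Ratios to the phagocyte list were not tested.

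Macrophage-gated cells, which include border macrophages and monocyte-derived cells, were compared with the microglia-gated cells of the same tumor in tumors 1 to 4. Tumor 5 had 2 macrophage-gated cells and was left out. No complement gene passed with edgeR with the mouse as a block (0 of 7 tested, with 1.61% of 6290 genes called in either direction). An unadjusted p under 0.05 was found for 5 of the 7, beside 759 of all 6290 genes. With DESeq2 the 3 C1q chains were lower in macrophage-gated cells, against 1.3% of genes called lower.

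C1qa was at 6840, 7273, 5253 and 5927 CPM in macrophage-gated cells of tumors 1 to 4, which was 0.65, 0.736, 0.541 and 0.52 times the level in microglia-gated cells of the same tumor. C1qb and C1qc were lower in the macrophage gate in 4 of 4 tumors as well. A C1qa UMI was seen in 77.8%, 94.9%, 68.2% and 100% of the macrophage-gated cells of tumors 1 to 4. In microglia-gated cells it was seen in 100% in every tumor. The log2 differences were −0.73 ± 0.16 for C1qa (edgeR adjusted p = 0.052665), −0.82 ± 0.19 for C1qb (0.053583) and −0.75 ± 0.17 for C1qc (0.054748), and the DESeq2 adjusted p-values were 0.03982, 0.04621 and 0.04262. These calls lie at the threshold.

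**Figure D3:**
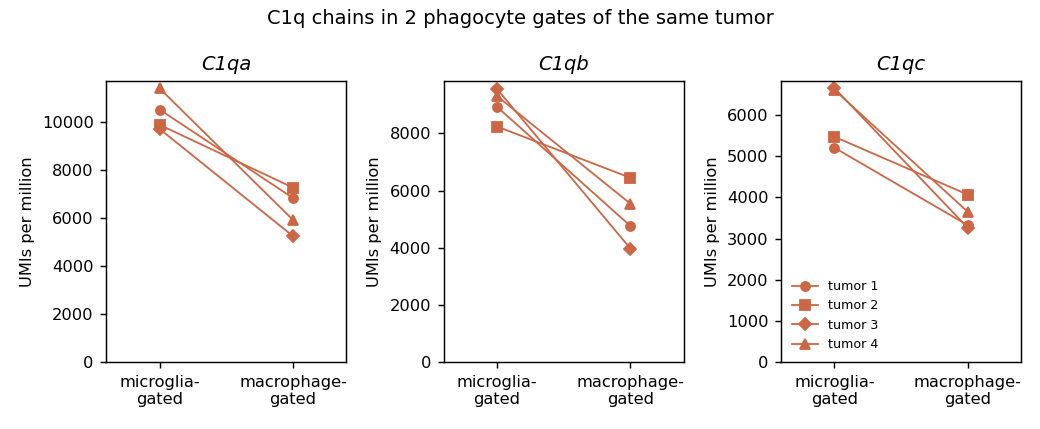
C1qa, C1qb and C1qc in CPM in the microglia and macrophage gates of tumors 1 to 4, each line joining the 2 gates of 1 tumor. All lines fall from microglia to macrophages, C1qa to between 0.52 and 0.736 times its level.

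C4b was at 402.4, 51.5, 297.8 and 29.5 CPM in macrophage-gated cells of tumors 1 to 4, on 27, 23, 39 and 11 UMIs. C3 was at 29.8, 33.6, 114.5 and 51.0, on 2, 15, 15 and 19 UMIs. These sums held 18, 79, 22 and 57 cells. Both genes had wide spread (log2 differences of 1.90 and 1.61 from microglia, edgeR adjusted p = 0.18973 and 0.3654). Their calls depended on the setting: C4b was called higher in macrophage-gated cells without tumor 4, and C4b and C3 without a filter on low counts. In tumor 4 both genes were lower than in microglia-gated cells. C5ar1 was at 149, 76.1, 481 and 16.1, and its log2 difference of 0.18 (adjusted p = 0.9427) turned to −0.56 without tumor 3. C3ar1 differed by −0.31 (0.67327). Serping1, with 1 UMI in the macrophage-gated cells of these tumors, did not pass the filter on low counts.

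In astrocyte-gated cells 3 of the 8 genes were tested and C4b was called higher, where 9.46% of 3437 genes were called higher. C4b passed the filter on low counts through the tumors, so the number called is a description. C4b was at 48.1, 19.8, 44.3 and 11.1 CPM in astrocyte-gated cells of controls, on 13 UMIs, and at 329.3, 280.4, 213.8, 294.1 and 325.2 in tumors, on 749 UMIs. The 5 tumors were close to one another and all above the controls. The log2 difference was 3.23 ± 0.38 (edgeR adjusted p = 0.00021768), and 2.82 after subtraction of the profile of the barcodes with the fewest UMIs (0.0098796). With thinned cells C4b was seen in 0% to 4.17% of control and 17.0% to 26.7% of tumor astrocyte-gated cells, with 0.263% to 0.541% and 0.457% to 3.6% of neuron-gated cells beside them. The tumor shares were above those of neuron-gated cells, and 1 of 4 controls had any thinned astrocyte-gated cell with a C4b UMI. C4a, the near-identical copy, had 0 UMIs in control and 3 in tumor astrocyte-gated cells.

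C1qa and C1qb, tested there as well, were not called (log2 differences of 1.09 and 1.24, edgeR adjusted p = 0.142 and 0.061557). Their levels in astrocyte-gated cells of tumors, 64.0 to 264.8 for C1qa, were below those of the barcodes with the fewest UMIs of the same tumor, 216.7 to 1294. The other 5 genes did not pass the filter on low counts, with 10 control and 151 tumor UMIs for C1qc, 3 and 27 for C3, 0 and 5 for C3ar1, 0 and 1 for C5ar1, and 1 and 33 for Serping1.

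Oligodendrocyte-gated cells, compared after the data were seen, carried C4b at 75.7, 59.7, 133.7 and 11.2 CPM in controls and at 267.8, 648.0, 124.6, 106.3 and 282.1 in tumors. The groups overlapped, since tumors 3 and 4 lay below control 3. C4b was the one gene tested and was not called with edgeR (log2 difference 2.08 ± 0.67, adjusted p = 0.060376; 4.81% of 1912 genes called higher), and was with DESeq2 (2.06, adjusted p = 0.01893; 6.43% called higher). Without tumor 3 or without tumor 4 it was called with edgeR as well. C4b, with 24 control UMIs, passed the filter on low counts through the tumors, where it was high, so these calls are a description. The other 7 genes did not pass the filter on low counts: C1qa, C1qb and C1qc had 11 or 12 UMIs in controls and 58 to 96 in tumors, C3 had 0 in both, and C3ar1, C5ar1 and Serping1 had 0 in controls and 2 each in tumors.

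**Figure D4:**
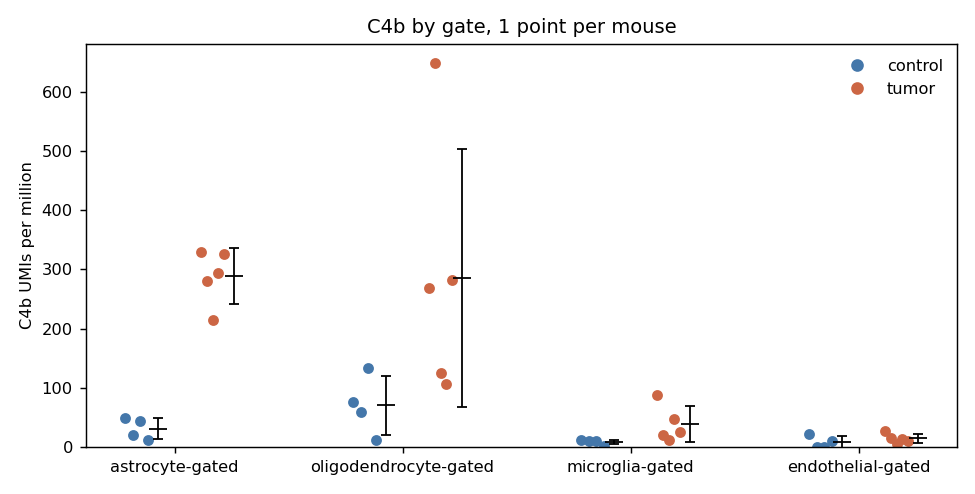
C4b in CPM in 4 gates, 1 point for each mouse, with the mean and SD beside the points. Tumor astrocyte-gated cells sit between 213.8 and 329.3 against at most 48.1 in controls, tumor oligodendrocyte-gated cells between 106.3 and 648.0 with overlap, and endothelial-gated cells at 27.3 or lower in every mouse.

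Endothelial-gated cells, the lining of the vessels, held C1q at 0 to 80.8 CPM per chain in controls and 19.9 to 166.9 in tumors. Of 3 tested genes 0 were called with edgeR, where 10.7% of 6451 genes were called higher, and 0 with DESeq2. With edgeR 1 had an unadjusted p under 0.05, beside 2262 of all 6451 genes tested. This was C1qb (log2 difference 1.33, edgeR adjusted p = 0.12183). The other 5 genes did not pass the filter on low counts. Serping1, which vessel cells are known to make, had 1 UMI in control and 7 in tumor endothelial-gated cells, C4b had 2 and 41, and C3, C3ar1 and C5ar1 had 0 in controls and 4, 7 and 2 in tumors.

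By source, C4b UMIs of tumors lay in astrocyte-gated cells (20.7% of 3620), oligodendrocyte-gated cells (14.2%), phagocyte-gated cells (10.4%), oligodendrocyte precursor-gated cells (10.1%), cells of the Igf2, H19 and Dlk1 gate (9.50%) and cells in no gate (22.2%). Single tumors carried some of these shares: tumor 2 held 322 of the 514 oligodendrocyte-gated UMIs and tumor 4 held 320 of the 366 in oligodendrocyte precursor-gated cells. In tumors C4b stood at 10.2 to 23.0 CPM in the Igf2, H19 and Dlk1 gate, 25.2 to 69.6 in no gate and 213.8 to 329.3 in astrocyte-gated cells. The barcodes with the fewest UMIs held 37.4 to 104.9 CPM. The part of this RNA in the shares by source was not tested. C3 UMIs of tumors were spread, with 31.7% of 1084 in no gate, 21.1% in cells of the Igf2, H19 and Dlk1 gate, 14.8% in microglia-gated and 7.75% in neural progenitor-gated cells, and most came from tumor 4. C3 was at 16.1 CPM or lower in the Igf2, H19 and Dlk1 gate, while the barcodes with the fewest UMIs of tumor 4 held 40.1. Among gates with at least 10 cells, the highest C3 levels were 145.0 and 89.4 CPM in ependymal-gated cells of tumors 1 and 2, on 9 and 12 UMIs, and 127.4 and 114.5 in neural progenitor-gated and macrophage-gated cells of tumor 3, on 30 and 15 UMIs. Serping1 UMIs of tumors lay in no gate (32.6% of 344) and in mural (12.2%), neuroblast (11.6%) and astrocyte-gated cells (9.59%), with 169.6 CPM in mural-gated cells of tumor 3.

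**Figure D5:**
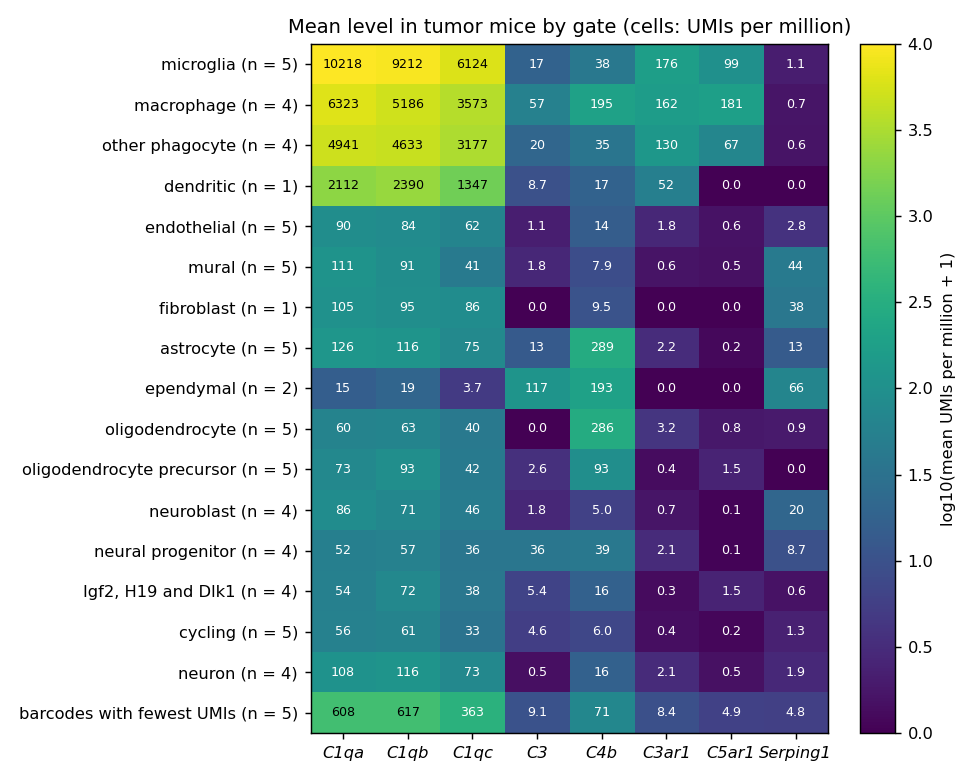
Mean level of the 8 genes in tumor mice by gate, with the number of mice that had at least 10 cells in each gate and, in the last row, the barcodes with the fewest UMIs. Cells give CPM and the color their log10; the C1q chains and C3ar1 are highest in microglia and other phagocyte rows, C4b is spread over astrocyte, oligodendrocyte, macrophage and ependymal rows, and Serping1 is at 19.7 or lower in the rows shown other than mural, fibroblast and ependymal.

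The rest of the pathway was read from 42 other complement genes, of which 25 passed the filter over all kept cells and 12 were called higher and 4 lower in tumors, beside 32.3% and 29.5% of all genes tested. Of the classical and lectin pathway genes, 3 rose and 1 fell of 8 tested, and the fall was that of Masp2, a lectin pathway protease, from 30.4 to 40.3 CPM in controls to 0.266 to 1.69 in tumors. Among receptors, 4 of 5 rose: Itgam and Itgb2, the chains of complement receptor 3, by 2.27 and 3.10 on the log2 scale, Itgax by 4.17 and C5ar2 by 2.35, while Cr2 fell by 1.20. Among regulators, Clu rose by 3.39 and Vtn by 2.71, and Cd46 and Csmd1 fell by 2.10 and 2.72.

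Cfb, the protease of the alternative pathway, rose by 5.11 ± 1.31 on the log2 scale (edgeR adjusted p = 0.0076821), but 3063 of its 3431 tumor UMIs were in tumor 4, the tumor that also held most C3. Cfp, its stabilizer properdin, did not pass (−0.59, adjusted p = 0.15438). The one terminal pathway gene tested, C8g, rose by 1.15, and Hc, which encodes C5, had 24 UMIs in controls and 39 in tumors. Colec11, Colec12 and C2 rose by 2.94, 1.01 and 1.00.

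Within microglia-gated cells 6 of the 42 were tested and 2 were called higher, beside 18.7% of all genes tested. Itgb2 rose by 1.44 on the log2 scale (edgeR adjusted p = 0.00067415), from 76.0 to 92.3 CPM in controls to 119.9 to 254.4 in tumors. Clu rose by 1.29 (0.04349), but its groups overlapped, at 273.8 to 397.6 CPM in controls and 169.0 to 1256 in tumors, with tumor 3 below every control, whereas Itgam (0.45, adjusted p = 0.118) was not called. Clu, a secreted chaperone that also holds back the terminal pathway, rose in astrocyte-gated cells by 2.13 (0.00039593), in oligodendrocyte-gated cells by 2.06 (0.030885), and in endothelial-gated cells by 1.42 (0.048671), where the groups overlapped (215.5 to 302.3 CPM in controls, 191.6 to 1465 in tumors). In the barcodes with the fewest UMIs Clu stood at 430.1 to 501.4 CPM in controls and 1711 to 4096 in tumors, above its level in microglia-gated, oligodendrocyte-gated and endothelial-gated cells of the same mouse in all 9 mice and below that in astrocyte-gated cells. The part of this RNA in the differences of Clu was not tested. Of 7 tested in macrophage-gated against microglia-gated cells, 0 were called.

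Over 95 sums of 1 gate in 1 mouse from 18 gates, the genes most like each member were described by Pearson's r of log2(CPM + 10). The sums of a mouse share a library, and several of the genes named are phagocyte gate markers, so the values carry no test. C1qa was most like Fcer1g (0.972), Tyrobp (0.972) and Ctss (0.965), C1qb like Ly86 (0.960), Cd300c2 (0.958) and Aif1 (0.956), and C1qc like Ly86 (0.963), Tyrobp (0.963) and Aif1 (0.959). C3ar1 was most like P2ry6 (0.978), Ptpn6 (0.971) and Arhgap45 (0.969), and C5ar1 like Gm46224 (0.927), Nlrp3 (0.906) and Lrrc25 (0.900). The other 3 genes had no close match: the highest were Traf1 (0.657), Adgb (0.652) and Cd44 (0.651) for C3, Tsc22d4 (0.685), Tmbim1 (0.664) and Atraid (0.640) for C4b, and Ccdc3 (0.640), Gm14964 (0.638) and Pi15 (0.634) for Serping1.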

How the data were processed

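The 9 libraries were 10x 5′ single-cell RNA-seq, 4 control and 5 tumor mice. The authors deposited raw UMI counts per gene and barcode as matrices. Their notes name Cell Ranger 7, Scanpy 1.8.2 and build mm10, and matrix headers name Cell Ranger 6.1.2. Control 4's matrix had more rows than its feature list and more columns than its barcode list; its 32285 mouse genes were listed in the same order as in the other libraries and were read by row, its vector entries were not identified, and its barcodes were read by column.

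Of the 10000 barcodes with most UMIs per library, those with 200 to 6000 genes were kept, below a mitochondrial limit set by a 2-component mixture in each library and after Scrublet doublet removal (0.8% expected per 1000 barcodes). Controls held 75222 to 86516 barcodes and tumors 9001 to 26341, although up to 10000 cells were loaded. Gates needed at least 3 or 4 marker genes and a minimum share of UMIs, set after the histograms of the data were seen. Cells passing more than 1 gate were set aside as mixed.

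UMI counts were summed per mouse and gate (at least 10 cells) and tested with edgeR 4.0.16 (TMM, filterByExpr, quasi-likelihood, R 4.3.3, Benjamini-Hochberg over all genes tested, threshold 0.05); SE was taken from the F statistic. Single values were tested by exact permutation. DESeq2 1.42.0 and limma 3.58.1 were alternatives. Python 3.11.15, numpy 2.4.6, pandas 2.3.3, scipy 1.17.1, scikit-learn 1.9.0, scanpy 1.11.5 and matplotlib 3.10.9 were used. Methods were tested on simulated data. Replicate pairs of 1 group differed by 4.16 to 371 times the chi-square of sampling noise, so none was 1 library deposited again. Same-numbered control and tumor mice did not deviate together (r from −0.0017 to 0.052 over 17599 genes). The labels do not say whether replicate numbers mark a shared litter or day, and these correlations cannot exclude one. Intervals and limits for 0 counts (3 counts) cover counting error only. Columns not used numbered 0.

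The members and lists were chosen with earlier results of these data known. Named were the 8 genes in every comparison, other complement genes that were called or the 2 most abundant of each list, the 3 genes most like each member over gated classes, and gate markers. Likeness left out mixed cells and cells in no gate; with them (111 sums) 16 of 24 named genes were the same. Some items covered by these rules are not reported here.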

Additional observations from a re-analysis of the deposited data

Results flagged for a closer look

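Of 61 groups of 4 or 5 mice checked for a mouse far from the others, 3 stood out, where chance flags about 1 in 20. C4b over all kept cells had its highest tumor, tumor 1, at 116.3 counts per 1000000 UMIs, with the next at 42.15. C3ar1 had tumor 3 at the top over all kept cells, at 77.73 with the next at 23.51, and in microglia-gated cells, at 263.7 with the next at 168.8.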

How the results depend on the processing

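Over all kept cells 7 of 8 genes were called higher in each of 19 alternatives. Of all genes, the share called higher ran from 5900 of 26519 (no filter) to 6107 of 17443 (without tumor 1). C3 and C5ar1 passed the main filter on low counts through the tumors, so these counts are a description. Within microglia-gated cells the count was 4 to 7 over 21 alternatives, with C1qa, C1qb, C1qc and C5ar1 called in each. C5ar1, with 11 control UMIs, passed the filter on low counts through the tumors, so its calls are a description. The 4 came with subtraction, beside 1236 of 6110 genes higher, and the 7 without a filter, beside 2387 of 19470. The C1q share held by phagocytes kept its call in all 14.

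Counts of called members moved in the gates with few cells. Without a filter on low counts they were 3 in endothelial-gated, 4 in astrocyte-gated, 1 in oligodendrocyte-gated and 5 in macrophage-gated cells, of which 2 were higher and 3 lower. Of all genes, 1410 of 17642, 757 of 17977 and 599 of 16057 were called higher in the first 3 gates and 539 of 18538 in either direction in the last. Without the mitochondrial and doublet filters the members called were 2, 4, 1 and 3. Beside them stood 804 of 7390, 870 of 7800 and 135 of 2121 genes higher and 144 of 8995 in either direction. The replicate block gave 3 in astrocyte-gated cells, beside 236 of 3437 genes higher, and changed no other count. Nothing in the labels pairs these mice by number. In oligodendrocyte-gated cells DESeq2 and 1 more marker gene gave 1 each, beside 123 of 1912 and 100 of 1909 genes higher. In macrophage-gated cells DESeq2, limma voom, library totals only, a mitochondrial limit of 10% and 1 more marker gene gave 3 each, at least 500 genes gave 2 and no doublet removal 1. All of these were lower in macrophage-gated cells. In the same order, 82, 71 and 65 of 6290, 91 of 7356, 96 of 6217, 68 of 6288 and 65 of 6491 genes were called lower. Leaving out 1 mouse gave 1 to 2 in astrocyte-gated (2 without tumor 1 or tumor 5), 0 to 1 in oligodendrocyte-gated (1 without tumor 3 or tumor 4) and 0 to 1 in macrophage-gated cells (1, higher, without tumor 4). In the same order, 278 of 2822, 227 of 2785, 87 of 1716, 224 of 1709 and 47 of 6404 genes were called higher. The phagocyte share fell to 4.88 points without neuron-gated cells. The C1qa chain share difference of −0.076 ranged from −0.93 to 1.15 points when 1 mouse was left out, turning sign without control 2, control 4, tumor 3 or tumor 5. Serping1 turned to −0.41 over all deposited barcodes, and C5ar1 in macrophage-gated cells to −0.017 without a filter and to a range of −0.56 to 0.56 when 1 tumor was left out, −0.56 being without tumor 3. Causes were not tested.

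Genes called over the whole transcriptome moved by over 1.5 times in places. Without a filter they were 2295 of 17642 tested against 1374 of 6451 (endothelial), 1343 of 17977 against 703 of 3437 (astrocyte), 1059 of 16057 against 252 of 1912 (oligodendrocyte) and 539 of 18538 against 101 of 6290 (macrophage). Without mitochondrial and doublet filters astrocyte-gated cells gave 1859 of 7800, with a 10% limit 331 and with subtraction 182. Subtraction gave 2012 against 3309 in microglia-gated, 840 in endothelial-gated, 97 in oligodendrocyte-gated and 42 in macrophage-gated cells, and the replicate block 159 in oligodendrocyte-gated cells. Leaving out 1 mouse gave 810 in endothelial-gated (without control 4), 453 in astrocyte-gated (without control 2), 469 in oligodendrocyte-gated (without tumor 4), and 19 and 62 in macrophage-gated cells (without tumor 2 and tumor 1). Macrophage-gated cells gave 0 without the block, 168 with DESeq2, 178 with a 10% limit and 170 with 1 more marker gene. With library totals only, calls in microglia-gated cells were 818 higher and 2946 lower against 1536 and 1773, and in oligodendrocyte-gated cells 69 and 201 against 92 and 160. Limma voom gave 300 higher and 764 lower in endothelial-gated cells against 689 and 685. It gave 117 and 382 against 325 and 378 in astrocyte-gated cells, and 44 and 169 against 92 and 160 in oligodendrocyte-gated cells. The endothelial comparison with a 10% mitochondrial limit gave no value, since no control had 10 cells. The depth of control gates, with 11 to 13 UMIs for C5ar1 and C4b, limits the size of those differences.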
